A study of Mus musculus with 12 samples.

Results

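Epcam, Spint1, Spint2, St14, Asb2 and Susd2 are 6 of 20856 genes that could be followed through every library of an RNA sequencing series on regulatory T cells (Treg) of mice with a venous thrombus. They were picked by name, with exon reads of these libraries in view, as genes that looked high in spleen. Their levels in thrombus and vein wall against spleen are therefore a description and carry no test. The test is kept for thrombus against vein wall, a contrast on which the choice was not made. The thrombus and vein wall values were in view all the same, so this test is not fully independent of the choice. A level above that of both other tissues held for 3 of the 6. In Epcam, Spint2 and Asb2 every spleen sample was above every thrombus and vein wall sample, a pattern seen in 0.906% of the 11706 genes tested. All thrombus samples lay below all spleen samples in 3 of the 6 members and in 2.49% of genes tested, and above them in no member and in 2.49% of genes. All vein wall samples lay below all spleen samples in 4 of the 6 members and in 6.49% of genes tested, and above them in no member and in 6.77% of genes. Susd2 was high in spleen against vein wall alone, St14 was led by a single thrombus sample, and Spint1 was close to absent outside 1 spleen sample.

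All groups came from DEREG mice, which carry Tg(Foxp3-DTR/EGFP)23.2Spar on C57BL/6 and in which a transgene under Foxp3 control makes a diphtheria toxin receptor fused to EGFP. Every mouse had its inferior vena cava ligated, so spleen too is from mice with a thrombus, and all tissue was taken at day 14. Live CD45+ CD4+ cells with Foxp3-driven EGFP and CD69, a surface marker of recent activation and tissue retention, were sorted from spleen, thrombus or vein wall, with 4 libraries per tissue. The EGFP gate reports the transgene, and the labels do not say how many mice went into a library, so the spread between samples may be technical in part.

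EpCAM is a homophilic adhesion protein of epithelia that binds claudin 7 at cell contacts. Matriptase, the membrane serine protease encoded by St14, cuts EpCAM, which destabilises the claudin 7 bound to it, and is held in check by the Kunitz-domain inhibitors HAI-1 (Spint1) and HAI-2 (Spint2), so these 4 genes encode parts of 1 proteolytic circuit. Asb2 encodes a substrate-recognition subunit of a cullin 5 ubiquitin ligase that marks filamins, the actin cross-linkers, for degradation. Susd2 encodes a membrane protein with a sushi domain that binds galectin 1.

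The sequences shown here are the 250 bases before the annotated starts of the 3 genes whose spleen samples stood above all others, since a reader may ask whether they share promoter features. They come from the RefSeq promoter table of GRCm38.p6, which matched 4 of the 6 members. They are written 5′ to 3′ on the gene's strand. Capitals mark matches to CAGGTG, the E-box read by ZEB and SNAIL repressors, and to the GC box. That box is spelled GGGCGG, and both motifs were searched on either strand. The Epcam stretch lies at chr17:87635729-87635978 (plus strand), that of Spint2 at chr7:29281978-29282227 (minus strand), and Asb2 has a distal start at chr12:103356002-103356251 and a proximal one at chr12:103338391-103338640 (both minus strand).
Epcam: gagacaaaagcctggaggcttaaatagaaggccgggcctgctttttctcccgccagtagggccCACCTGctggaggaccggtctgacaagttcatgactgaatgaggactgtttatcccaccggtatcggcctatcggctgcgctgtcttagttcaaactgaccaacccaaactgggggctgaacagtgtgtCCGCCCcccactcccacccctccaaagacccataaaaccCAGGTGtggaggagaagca
Spint2: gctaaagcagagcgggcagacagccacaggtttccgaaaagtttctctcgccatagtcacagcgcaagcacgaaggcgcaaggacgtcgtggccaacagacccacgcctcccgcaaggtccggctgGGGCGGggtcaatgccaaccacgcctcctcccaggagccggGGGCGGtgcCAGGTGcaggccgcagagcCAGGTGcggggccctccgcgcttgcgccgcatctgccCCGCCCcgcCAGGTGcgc
Asb2 distal: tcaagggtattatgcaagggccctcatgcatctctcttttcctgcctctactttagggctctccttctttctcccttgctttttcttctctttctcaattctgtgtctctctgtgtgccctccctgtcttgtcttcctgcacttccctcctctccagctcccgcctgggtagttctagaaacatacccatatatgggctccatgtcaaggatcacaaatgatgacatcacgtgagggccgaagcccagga
Asb2 proximal: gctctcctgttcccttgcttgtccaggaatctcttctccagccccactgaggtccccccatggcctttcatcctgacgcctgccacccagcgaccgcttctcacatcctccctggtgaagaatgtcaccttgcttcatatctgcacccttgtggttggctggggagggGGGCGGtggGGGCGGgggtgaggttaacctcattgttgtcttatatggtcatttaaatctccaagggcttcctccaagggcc
The search covered windows from 250 bases before to 50 after each start, on both strands. Epcam held 2 CAGGTG matches, at -187 and -19 from the start, and Spint2 held 3, at -74, -55 and -9. At least 1 match was present in 20.2% of the 32851 promoters in the table, at least 2 in 2.88% and at least 3 in 0.365%. Neither the Asb2 windows nor that of Spint1 held the motif. GC boxes, present in 35.7% of promoters, occurred 3 times in Spint2, 3 times in Spint1, once in Epcam and 2 times in the proximal Asb2 window. The distal Asb2 window matched none of the 6 motifs searched, and TATAAA (13.6% of promoters), TGGGAA, the RBPJ core of Notch signalling (25.6%), and the STAT motif TTCNNNGAA (8.30%) were in none of the 5 windows. The AP-1 motif TGANTCA (7.81%) was in that of Spint1 alone. These windows also differed in base composition, with 69.3% G and C and 26 CpG dinucleotides in Spint2, 57% and 11 in Epcam, and 53% and 6 in the distal Asb2 window, where the median promoter had 52.7% and 7. A match of letters is not a binding site, and these libraries hold no measure of binding.

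Libraries held 9719151 to 55386086 exon reads and 10297 to 11454 genes with at least 10 reads. Their files form 3 sets with different gene models: spleen 1 and thrombus 1 in set 1, spleen 2, thrombus 2 and vein wall 1 in set 2, and the other libraries in set 3. Spleen 3 and 4, and vein wall 3 and 4, were far closer to each other than other replicates (chi-square per gene 3.96 and 2.56, against 96.8 to 355 in the other 16 pairs), and each pair was summed as 1 sample, which left 3 spleen, 4 thrombus and 3 vein wall samples. The genes of the sort were present throughout: the 8 Treg markers summed to 4448 to 6033 counts per 1000000 (CPM, scaled by trimmed-mean library sizes) in spleen, 4487 to 6154 in thrombus and 4863 to 6659 in the vein wall. Foxp3 itself averaged 541 ± 137, 517 ± 179 and 403 ± 70.7 CPM in the 3 tissues, in the order spleen, thrombus, vein wall (SD over 3, 4 and 3 samples, as for every mean here). The sum does not show how single markers differed. Cd69, a gene of the sort gate, averaged 280 ± 58.6, 586 ± 175 and 752 ± 120 CPM in the same order. Ctla4 averaged 651 ± 127, 1042 ± 272 and 1040 ± 178 CPM. In both, every spleen sample was below all others, and no marker had every spleen sample above all others. In sorted but bulk samples, fewer cells of a type and less RNA per cell cannot be told apart.

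Epcam (ENSMUSG00000045394; GRCm38 chromosome 17, 87635979 to 87651106, plus strand) was present in every sample and highest in spleen. It had 77.8, 55.2 and 132 CPM in spleen 1, spleen 2 and spleen 3-4. Thrombus 1 to 4 had 13.8, 5.48, 49.6 and 13.8 CPM. Vein wall 1, 2 and 3-4 had 20.4, 27.0 and 48.7 CPM. The lowest spleen sample thus lay above the highest thrombus sample and the highest vein wall sample, by a small margin. Means were 88.4 ± 39.5, 20.7 ± 19.7 and 32.0 ± 14.8 CPM, a spleen mean 4.28 times that of thrombus and 2.76 times that of vein wall. On the log2 scale of the fit across all genes, thrombus was lower than spleen by a fold change of -2.10 ± 0.61 (SE) and vein wall by -1.46 ± 0.66. Without thrombus 3 the first became -3.003. In each set of files that held both tissues the order was the same: the spleen level was 5.63, 10.1 and 4.17 times that of thrombus in sets 1, 2 and 3, and 2.70 and 3.49 times that of vein wall in sets 2 and 3.

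Epcam reads were mostly exonic. Introns held 0.290% to 1.94% of its reads in spleen. In thrombus 1 they held 17.1% (95% Wilson interval 13.01% to 22.2%), but in thrombus 2, 3 and 4 they held 0%, 0.425% and 0.667%. In vein wall 1, 2 and 3-4 they held 12.5%, 11.3% and 2.30%. The tissues thus overlapped in intron share. Reads that cross an exon junction, the sign of spliced RNA, were 26.6% ± 3.31 of its exon reads in spleen, 19.8% ± 6.78 in thrombus and 22.9% ± 5.37 in the vein wall. Thrombus 4 was lowest at 11.4% (7.25% to 17.5%). These intervals cover counting error only, since the libraries carry no molecular identifiers.

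**Figure D1:**
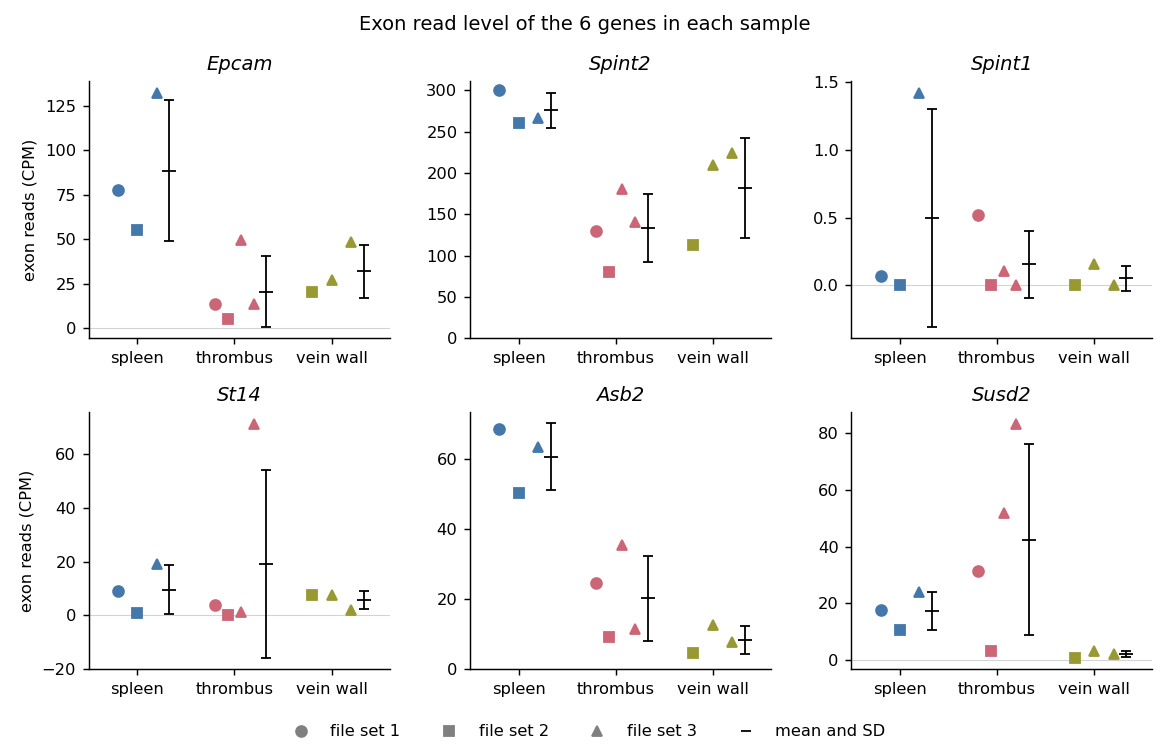
Exon read level of each gene in CPM (vertical axis, linear, a scale per panel) for 3 spleen, 4 thrombus and 3 vein wall samples. Each point is a sample, its shape gives the set of files, and the black mark and bar are the mean and SD. Spleen points lie above all others for Epcam, Spint2 and Asb2, while 1 thrombus point at 71.5 CPM sets the scale for St14.

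Because Epcam marks epithelium, 15 other epithelial genes were read beside it. Their sum went the other way, at 0.214 to 13.5 CPM in spleen against 9.18 to 47.4 in thrombus and 22.2 to 41.3 CPM for vein wall. Between 9 and 13 of the 15 had no read in a spleen sample. Cldn7, the claudin that EpCAM binds, Krt5, Krt14 and Krt19, keratins of epithelial cells, and the epithelial regulators Grhl2, Elf3 and Esrp1 had no read in any spleen sample. Other keratins did: Krt18 had reads in all 3 spleen samples and Krt7 in 2 of 3. Krt18 averaged 1.81 ± 1.91, 1.43 ± 1.54 and 6.06 ± 6.72 CPM in spleen, thrombus and vein wall. Krt7 averaged 0.811 ± 1.28, 0.357 ± 0.349 and 0.910 ± 0.971 CPM. Krt8, Cdh1 and Esrp2 reached at most 0.161 CPM in spleen. Muc1, a membrane mucin, held most of the sum in spleen 3-4, with 7.28 CPM of 13.5, and had reads in 2 of 3 spleen samples. Muc1 averaged 3.17 ± 3.73, 14.7 ± 8.73 and 18.6 ± 11.2 CPM in spleen, thrombus and vein wall. The mean sums were 5.94, 25.0 and 29.0 CPM, so Muc1 made up most of each. It reached at most 21.0 CPM in thrombus, where the sum of thrombus 3 was 47.4, and 29.6 CPM in vein wall. Thrombus 3, the thrombus sample with the most Epcam, also had the most Krt5 (10.5 CPM) and Krt14 (11.4 CPM). The part of these transcripts in its Epcam level was not tested. The 4 Langerhans cell markers summed to 5.47 to 20.9 CPM in spleen, nearly all from Mfge8, with Cd207 and Cldn1 at 0 reads in all spleen samples. They reached 45.4 CPM in thrombus 3.

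**Figure D2:**
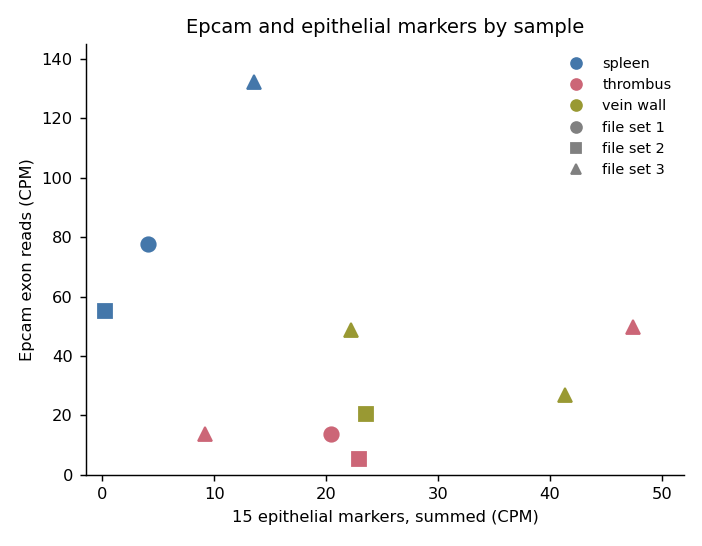
Summed CPM of 15 epithelial markers (horizontal axis) against Epcam CPM (vertical axis) in the 10 samples, with colour for tissue and shape for the set of files. The 3 spleen samples combine the highest Epcam levels, 55.2 to 132 CPM, with marker sums of at most 13.5 CPM.

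Spint2 (ENSMUSG00000074227; chromosome 7, 29256323 to 29281912, minus strand), which encodes HAI-2, was the most abundant of the 6. It had 300.2, 261 and 266 CPM in the spleen samples. In thrombus 1 to 4 it had 130, 80.4, 180 and 141 CPM. In vein wall it had 113, 209 and 224 CPM. The spleen values lay close together and above all others. Thrombus and vein wall overlapped, with thrombus 2 below every vein wall sample. Means were 276 ± 21.4, 133 ± 41.1 and 182 ± 60.4 CPM, and the spleen mean was 2.07 times that of thrombus and 1.51 times that of vein wall (log2 fold changes -1.05 ± 0.35 and -0.60 ± 0.37). Within sets 1, 2 and 3 the spleen level was 2.31, 3.24 and 1.66 times that of thrombus. It was 2.31 times that of vein wall in set 2 and 1.23 times in set 3, so most of the vein wall difference lay in set 2. Per kilobase of exon, Spint2 stood between the 95.4th and 98.6th percentile of joined genes in spleen. Its exon model is 1475 bases long in sets 1 and 3 and 2220 in set 2, which lowers its set 2 levels per length. The 5′ end of the model lies at 29281912 in sets 1 and 3 and at 29282066 in set 2. Neither is the RefSeq start behind the Spint2 stretch shown, and part of that stretch lies within the set 2 model. Junction reads made up 29.1% ± 0.465 of its exon reads in spleen, 27.8% ± 2.11 in thrombus and 28.1% ± 1.74 in the vein wall, close to the same share in each tissue.

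Spint1 (ENSMUSG00000027315; chromosome 2, 119237362 to 119249527, plus strand), the HAI-1 gene, was too low for the fit. The spleen samples had 1, 0 and 110 exon reads, thrombus 8, 0, 1 and 0, and vein wall 0, 3 and 0. The 110 reads of spleen 3-4 equal 1.42 CPM, and 24 of them crossed a junction. No junction read occurred in any other sample. In thrombus 3 and 4, 8 of 9 and 6 of 6 gene reads were intronic. A count of 0 allows up to 0.0748 to 0.278 CPM in the samples concerned. Spleen and thrombus exchanged order between sets: the thrombus level was higher in set 1 (0.519 against 0.0701 CPM, 8 reads against 1) and the spleen level in set 3 (1.42 against 0.0529 CPM), while set 2 held no read in any of its 3 samples.

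St14 (ENSMUSG00000031995; chromosome 9, 31089402 to 31131853, minus strand), the matriptase gene, did not follow its inhibitor Spint2. It had 9.05, 0.804 and 19.0 CPM in spleen. Thrombus 1 to 4 had 4.02, 0, 1.27 and 71.5 CPM, and vein wall had 7.66, 7.46 and 2.07 CPM. The groups overlapped throughout, and thrombus 4 alone exceeded every spleen sample. Means were 9.62 ± 9.11, 19.2 ± 34.9 and 5.73 ± 3.17 CPM. The log2 fold change of thrombus against spleen was 0.99 ± 1.80, and without thrombus 4 it was -2.44, so its direction rests on that sample. For vein wall against spleen it was -0.75 ± 1.89, turning to 0.40 when the file set was a covariate and to 0.22 without spleen 3-4. Within sets the vein wall level was 9.53 times that of spleen in set 2 and 0.251 times in set 3.

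The St14 reads of thrombus 4 were those of spliced RNA, with 162 of 771 exon reads on junctions (21.0%, Wilson interval 18.3% to 24.0%) and 0.644% of gene reads in introns. By contrast none of 12 exon reads in thrombus 3 and none of 83 in vein wall 3-4 crossed a junction, and 35 of 47 gene reads in thrombus 3 were intronic. Thrombus 4 also held the highest sum of 11 pancreatic acinar markers (508 CPM, against 22.6 to 222 in the other thrombus samples) and 1555 CPM of erythroid markers, below 2042 in thrombus 2 and 1815 in spleen 1. Their part in its St14 level was not tested. A pseudogene on the other strand, Gm16071, lies within St14, and since the libraries do not mark strand, reads of overlapping genes cannot be told apart.

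Asb2 (ENSMUSG00000021200; chromosome 12, 103321142 to 103356001, minus strand) showed the largest spleen to vein wall ratio of the 3 genes above all others in spleen. It had 68.6, 50.2 and 63.4 CPM in spleen, 24.7, 9.34, 35.4 and 11.5 CPM in thrombus 1 to 4, and 4.62, 12.6 and 7.63 CPM in vein wall. The spleen values lay above the rest, and thrombus and vein wall overlapped. Means were 60.7 ± 9.47, 20.2 ± 12.2 and 8.29 ± 4.04 CPM, so that spleen was 3.00 times thrombus and 7.33 times vein wall (log2 fold changes -1.59 ± 0.56 and -2.87 ± 0.65). Spleen was higher than thrombus by 2.78, 5.38 and 2.70 times in sets 1, 2 and 3, and higher than vein wall by 10.9 and 6.26 times in sets 2 and 3.

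Junction and intron reads of Asb2 were also highest in spleen. Junction reads averaged 10.5 ± 1.44, 2.05 ± 1.65 and 0.440 ± 0.321 CPM in spleen, thrombus and vein wall. Intron reads had 22.8 ± 1.34, 8.87 ± 1.54 and 9.42 ± 4.43 CPM. As a share of exon reads, junction reads were 14.7%, 18.6% and 19.1% in the spleen samples, 13.4%, 2.99%, 10.1% and 8.87% in thrombus 1 to 4, and 6.85%, 6.38% and 2.61% in vein wall. No sample of the other tissues reached the lowest spleen share. The mean share was lower than in spleen by 8.60 percentage points in thrombus and by 12.2 in vein wall, at the 2.44th and 2.42nd percentile of such differences over 7719 genes with at least 30 exon reads in every sample, whose median differences were -0.46 and -0.95 points. Epcam, whose share was lower by 6.80 and 3.66 points, lay at the 4.48th and 22.3rd percentile. Over all joined genes the junction share was 21.8% to 26.4% in every sample. Introns held 27.5% ± 2.24 of Asb2 gene reads in spleen, 34.8% ± 16.0 in thrombus and 52.8% ± 23.7 in the vein wall.

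Reads with more than 1 match in the genome were also uneven in Asb2. They were 4.40%, 13.2% and 8.08% of its exon reads in spleen, 1.61% to 5.97% in thrombus, and 1 read in all in vein wall. Counted on unique exon reads alone, the spleen mean remained above the others, at 67.9 against 23.9 and 10.3 CPM. An annotated antisense gene, Gm15523 (chromosome 12, 103336906 to 103348057), overlaps Asb2, and its reads cannot be told from those of Asb2 without strand.

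**Figure D3:**
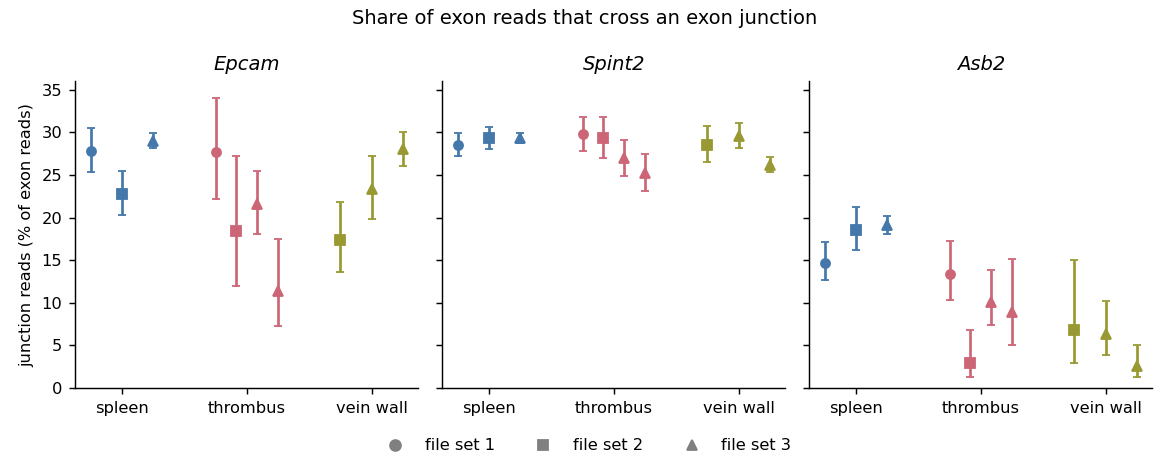
Junction reads as a percentage of exon reads (vertical axis) for Epcam, Spint2 and Asb2 in each sample, with 95% Wilson intervals as bars and the set of files as shape. Spint2 stays between 25.3% and 29.7% in all 10 samples, and Asb2 lies at 14.7% to 19.1% in spleen and 2.61% to 6.85% in vein wall.

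Susd2 (ENSMUSG00000006342; chromosome 10, 75636706 to 75644008, minus strand) differed most, among the members tested, between the 2 tissues of the ligated vein. The difference was not called (edgeR adjusted p = 0.855). It had 17.7, 10.6 and 23.8 CPM in spleen. Thrombus 1 to 4 had 31.2, 3.35, 51.7 and 83.3 CPM, and vein wall had 0.886, 3.11 and 2.27 CPM. Every thrombus sample was above every vein wall sample, narrowly so for thrombus 2, and 3 of 4 thrombus samples were above every spleen sample. Means were 17.4 ± 6.60, 42.4 ± 33.7 and 2.09 ± 1.12 CPM. Spleen was 8.31 times vein wall (log2 fold change -3.05 ± 0.88), by 12.0 times in set 2 and 8.84 times in set 3. Thrombus was 2.44 times spleen (1.29 ± 0.78). Within sets thrombus was 1.77 and 2.84 times spleen in sets 1 and 3, but 0.316 times in set 2. Junction reads were 16.3% ± 4.77 of its exon reads in spleen, 23.2% ± 1.05 in thrombus and 26.4% ± 5.24 in the vein wall, and introns held at most 4.76% in any sample. Thrombus 2, the lowest thrombus sample, also held the highest sum of 12 macrophage and monocyte markers (2116 CPM, against 64.5 to 127 in the other thrombus samples), whose part in its Susd2 level was not tested.

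Thrombus against vein wall compares Treg inside the clot with those of the vessel wall around it. No member passed in this comparison, where edgeR's quasi-likelihood test with Benjamini-Hochberg adjustment called 0% of the 11706 genes, 342 of which had an unadjusted p under 0.05. DESeq2 called 10. Susd2 had the largest difference of the 5 members tested, with the same low vein wall values that set vein wall below spleen. Its log2 fold change was 4.33 ± 0.91 (edgeR adjusted p = 0.855), and all 4 thrombus samples were higher than all 3 vein wall samples, as in 2.36% of genes tested. The reverse, all thrombus below all vein wall samples, held in 1.48% of genes and in no member. Thrombus 2 and the choice of test decided the call: adjusted p was 0.0497 in edgeR without thrombus 2, 6.23e-05 in DESeq2 and 0.000717 in edgeR with no filter on low counts, and over all alternatives it ran from 6.23e-05 to 1. With library totals in place of trimmed-mean scaling, the fold change was 4.51 and the groups overlapped.

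For Asb2 the log2 fold change of thrombus against vein wall was 1.28 ± 0.59 (edgeR adjusted p = 1.000), with 2 of 4 thrombus samples above every vein wall sample. Epcam had -0.64 ± 0.61, with 3 of 4 thrombus samples below every vein wall sample, and Spint2 had -0.45 ± 0.35, with 1 of 4. St14 had 1.74 ± 1.86, and -1.69 without thrombus 4. Adjusted p was 1.000 for each of these in edgeR. Spint1 was not tested.

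**Figure D4:**
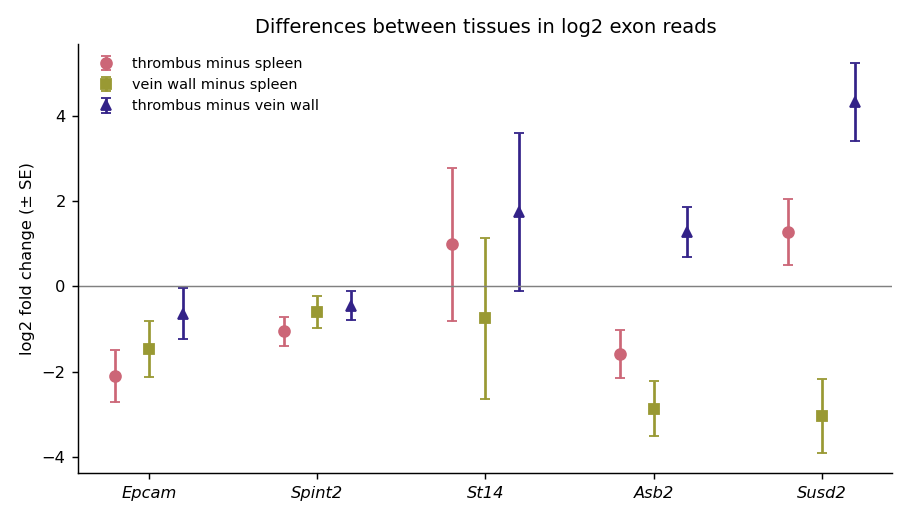
Log2 fold change with its SE (vertical axis) for the 5 members in the fit, for thrombus minus spleen, vein wall minus spleen and thrombus minus vein wall. Epcam, Spint2 and Asb2 lie below 0 in both spleen comparisons, and Susd2 lies at -3.05 in vein wall and 1.29 in thrombus.

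Compared per kilobase of exon, the order of the 6 genes in spleen was Spint2 (171 ± 58.4 RPKM), Epcam (43.8 ± 20.2), Asb2 (20.2 ± 2.61), Susd2 (5.51 ± 2.32), St14 (2.64 ± 2.73) and Spint1 (0.199 ± 0.321). Susd2 and St14, and St14 and Spint1, overlapped in their ranges. In thrombus the order was Spint2 (84.7 ± 38.5), Susd2 (13.4 ± 10.6), Epcam (9.97 ± 9.41), Asb2 (6.57 ± 4.12), St14 (5.53 ± 10.2) and Spint1 (0.0610 ± 0.0966), and all genes below Spint2 overlapped with the next in order. Epcam was above Susd2 in thrombus 2 and 3, and below it in thrombus 1 and 4. In vein wall it was Spint2 (102 ± 51.6), Epcam (14.0 ± 6.90), Asb2 (2.58 ± 1.22), St14 (1.32 ± 0.708), Susd2 (0.588 ± 0.328) and Spint1 (0.0190 ± 0.0330). Here Asb2 overlapped with St14, and St14 with Susd2.

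The genes whose log2 CPM was most like that of each member over the 10 samples, after the mean of each set of files was subtracted, are a description of these libraries, which share tissue and depth. Epcam was most like Pank2, a pantothenate kinase gene (Pearson's r = 0.98), Bod1, a chromosome alignment factor (0.97), and Hras (0.97). Spint2 was most like Fam122a (0.96), Hras (0.96) and Sys1, a Golgi trafficking gene (0.95). Asb2 was most like Trp53rka (0.96), Aaed1 (0.96) and Gdpd5 (0.95), and Susd2 like Zfp110 (0.97), Zfp3 (0.97) and Mybbp1a (0.96). Without subtracting the set means, r was 0.43 for Spint2 with Fam122a and 0.27 for Asb2 with Aaed1, so these likenesses rest on the centring. St14 was most like the nuclear pore gene Nup107 (0.95), Tpp1 (0.92) and Opa3 (0.91). Among the members, Epcam and Spint2 had r = 0.91, Epcam and Asb2 0.70, and Spint2 and Asb2 0.68, while St14 had 0.15 with Epcam and 0.13 with Spint2. The genes named as most like a member were picked as the highest of 11705 genes, over 10 points. The r values between members were not picked in this way. The members were chosen as genes that looked high in spleen, so likeness between them is not independent of that choice.

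The expressed neighbours of the members on the chromosome gave no call. Cabin1, 2104 bases from Susd2, had 51.0 ± 13.5, 42.7 ± 17.6 and 39.0 ± 5.20 CPM in spleen, thrombus and vein wall. Aplp2, next to St14 and itself a gene with a Kunitz domain, had 95.7 ± 16.3, 72.8 ± 18.7 and 54.0 ± 24.0 CPM.

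Other genes of the members' pathways were read from 8 lists of 161 genes, of which 84 could be tested. None was called in any comparison, where edgeR called 0.145% of tested genes in thrombus against spleen and 0.111% in vein wall against spleen, all of them higher than in spleen. With the file set as a covariate, 0.427% of genes were called higher and 0.0256% lower in thrombus, and 0.384% higher and 0.0256% lower in vein wall, again with no member of these lists. In the list of EpCAM partners and the proteases that cleave it, 4 of 15 tested genes were above 0 in thrombus and 6 of 15 in vein wall. Its median log2 fold changes were -0.24 and -0.08, beside 0.03 and -0.01 over all tested genes, of which 52.2% and 49.0% were above 0. The gamma-secretase subunits Psenen (370 ± 126 CPM in spleen) and Psen2 (225 ± 68.4), which release the EpCAM intracellular domain, and the tetraspanin Cd9 (186 ± 73.3), an EpCAM partner in membrane domains, were its most abundant genes.

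Of the membrane-anchored serine proteases related to matriptase, 4 of 24 could be tested, with Prss41 (5.52 ± 1.99 CPM in spleen), Hpn (7.89 ± 6.40) and Tmprss3 (0.217 ± 0.153) the most abundant over all samples. Of 14 substrates and receptors such as HGF, PAR2 and urokinase, 7 could be tested and 5 were above 0 in each comparison with spleen, beside 52.2% and 49.0% of all tested genes. Plaur, which encodes the receptor for urokinase, averaged 0.928 ± 1.11, 42.6 ± 55.1 and 57.2 ± 50.4 CPM in spleen, thrombus and vein wall. Its highest levels were in thrombus 2 (125 CPM) and vein wall 1 (115 CPM), which also had the highest macrophage and monocyte marker sums of their tissues (2116 and 424 CPM), whose part in it was not tested. The other thrombus and vein wall samples had 14.7 to 30.3 CPM. Its log2 fold changes were 5.57 ± 1.38 and 5.99 ± 1.42 (edgeR adjusted p = 0.467 and 0.391). Of 18 alternatives, 3 called the thrombus difference and 4 the vein wall difference. Both passed in edgeR with no filter on low counts (adjusted p = 2.51e-08 and 4.87e-09). Without thrombus 2 the vein wall difference passed in edgeR (adjusted p = 0.0228). F2rl1, which encodes PAR2, and Cdcp1, another matriptase substrate, were near 2.07 and 5.34 CPM in spleen.

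Among Kunitz-domain and serpin inhibitors, 8 of 16 tested genes were above 0 in thrombus and 7 of 16 in vein wall (medians -0.09 and -0.34). Serpina3g, an inhibitor of serine and cysteine proteases made by activated T cells, averaged 468 ± 53.0, 230 ± 85.6 and 185 ± 38.5 CPM in spleen, thrombus and vein wall, with every spleen sample above all others. Its log2 fold changes were -1.03 ± 0.34 and -1.34 ± 0.37 (edgeR adjusted p = 0.694 and 0.400). The second had adjusted p = 0.0362 in edgeR with the 12 libraries taken separately, a fit that counts near-duplicate libraries as separate samples. On leaving out 1 sample its lowest edgeR adjusted p was 0.220, and the range over all its alternatives was 0.0177 to 0.935. Cst3, cystatin C, had 313 ± 80.5 CPM in spleen and Serpinb6a had 84.1 ± 27.2.

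For Asb2, neither its paralogs nor the ligase core gave a call. In the ASB family 6 of 17 genes could be tested, with Asb3 at 79.5 ± 29.3, 76.0 ± 44.8 and 82.9 ± 27.2 CPM in spleen, thrombus and vein wall, Asb8 at 44.5 ± 11.05, 35.6 ± 7.96 and 26.3 ± 6.92, and Asb13 at 31.8 ± 11.6, 36.7 ± 14.1 and 47.6 ± 15.7. Of the cullin 5 core and its filamin substrates, 10 of 14 were tested and 7 were above 0 in each comparison (medians 0.13 and 0.39, beside 52.2% and 49.0% of all tested genes above 0). The elongin adaptor Elob had 637 ± 232, 766 ± 322 and 973 ± 412 CPM, and Nedd8, the modifier that activates cullins, had 464 ± 158, 511 ± 208 and 664 ± 168. In the Notch pathway, which has Asb2 among its reported targets, 11 of 13 tested genes were above 0 in thrombus and 5 of 13 in vein wall (medians 0.47 and -0.19), against the same 52.2% and 49.0%. Notch1 averaged 58.7 ± 18.8, 33.2 ± 15.5 and 34.8 ± 14.6 CPM in spleen, thrombus and vein wall, and its DNA-binding partner Rbpj had 47.4 ± 10.6, 56.1 ± 8.44 and 47.7 ± 16.7.

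Beside Susd2, a list of membrane proteins with sushi domains, together with galectin 1, had 10 of 13 tested genes above 0 in each comparison with spleen (medians 0.51 and 0.82), where all tested genes had 52.2% and 49.0% above 0. Lgals1, the galectin 1 gene, averaged 339 ± 77.2, 557 ± 166 and 597 ± 170 CPM in spleen, thrombus and vein wall. Every spleen sample was below all others in Lgals1, as in 1.21% of genes tested, and in Cd55, a complement regulator named here after its values were seen, which had 10.4 ± 8.54, 47.5 ± 15.8 and 85.4 ± 37.6 CPM (log2 fold changes 2.19 ± 0.79 and 3.03 ± 0.84, edgeR adjusted p = 0.861 and 0.463). Cd55 passed in both with no filter on low counts (adjusted p = 0.0180 and 0.000128) and in vein wall with DESeq2 (adjusted p = 0.00888).

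**Figure D5:**
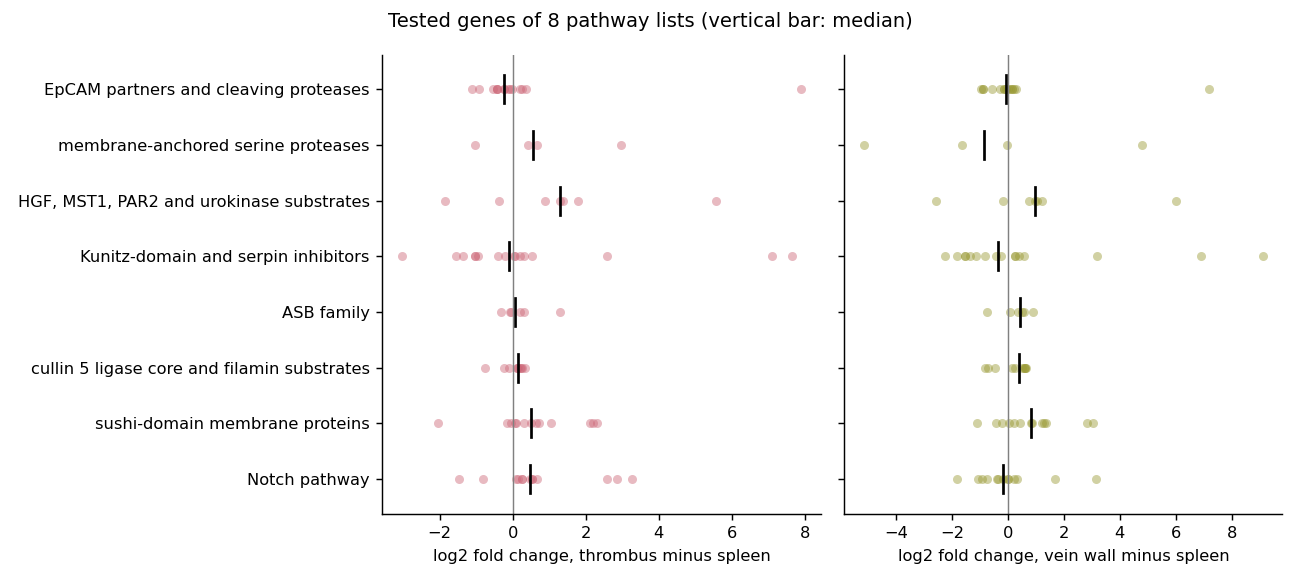
Log2 fold change against spleen (horizontal axis) of each tested gene in 8 pathway lists, for thrombus on the left and vein wall on the right, with the list median as a vertical bar. Medians run from -0.24 to 1.30 in thrombus and from -0.85 to 0.98 in vein wall, and no gene was called.

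Marker sums of other cell types also differed between tissues. The sum of 7 fibroblast markers was 0 to 0.453, 7.40 to 18.7 and 10.3 to 59.8 CPM in spleen, thrombus and vein wall. B and plasma cell markers summed to 279 to 572, 358 to 1052 and 590 to 1573 CPM, and plasmacytoid dendritic cell markers to 211 to 333, 168 to 1040 and 270 to 770.5 CPM. Conventional dendritic cell markers, of which Cst3 held the most, summed to 304 to 463, 297 to 640 and 410 to 443 CPM. The sums of NK and CD8 T cell markers were 241 to 554, 248 to 918 and 518 to 710 CPM, and those of endothelial markers were 24.1 to 56.6, 55.5 to 67.0 and 44.4 to 50.5. Neutrophil markers reached at most 8.50 CPM and platelet markers 54.1. Pancreatic acinar markers reached 116 CPM in spleen, 508 in thrombus and 236 in the vein wall. Erythroid markers reached 1815 CPM in spleen, 2042 in thrombus and 50.8 in the vein wall. The part of these cell types in the levels of the 6 genes was not tested.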

How the data were processed

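RNA of CD69+ Treg from spleen, thrombus and vein wall was made into cDNA from 2 ng with 12 amplification cycles, per the labels' protocols. Deposited files hold counts of total exon, unique exon, junction, intron and gene reads, with no normalization by the authors, per the file headers. The genome build was GRCm38, per the submitters' processing notes; aligner and counter: not given in the sources used here. Total exon counts include reads with more than 1 match (13.6% to 21.8%).

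Sets 1 and 3 were joined on Ensembl ID, and set 2 by symbol (20499 genes) or older name (357), which kept 92.3% to 96.3% of exon reads. Near-duplicate libraries were summed. The test was edgeR 4.0.16 in R 4.3.3 on these counts (quasi-likelihood, robust, TMM, default low-count filter, tissue as factor), with Benjamini-Hochberg adjustment and calls at 0.05. The code was checked on simulated data. DESeq2 1.42.0, other scalings, a set covariate and left-out samples were alternatives. RPKM were computed from exon reads and exon length of each set's own models.

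The members, lists and tests were chosen with earlier results of these data known. Named genes are the members, list genes called, the 3 most abundant tested per list, the 3 most like each member, and markers. Some genes that these rules name are not reported here. Adjusted p-values weigh a difference of means against the spread between samples, over all genes tested. That spread may be technical in part.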

Additional observations from a re-analysis of the deposited data

Results flagged for a closer look

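St14 in thrombus 4, at 71.5 CPM, lay far from the other 3 thrombus samples, which had 0 to 4.02 CPM, when the gap to its nearest neighbour was set against the whole range of the group (Dixon's test). The check applies to groups of 4 or more samples, so to thrombus alone, and chance marks about 1 in 20 groups.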

How the results depend on the processing

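Epcam, Spint2 and Asb2 stayed below spleen in thrombus and vein wall under all 18 alternatives. Their log2 fold changes ran from -3.003 to -1.69, -1.23 to -0.86 and -2.0 to -1.34 in thrombus, and from -1.90 to -1.05, -0.81 to -0.32 and -3.28 to -2.56 in vein wall. Their lack of overlap with spleen also held with DESeq2 size factors, library totals and unique exon reads. St14 changed sign. In thrombus against spleen it was -1.02 with the replicate block and -2.44 to 1.96 on leaving out 1 sample (-2.44 without thrombus 4), in vein wall against spleen 0.40 with the file set as a covariate and -1.26 to 0.22 on leaving out 1 (0.22 without spleen 3-4), and in thrombus against vein wall -0.066 with the covariate, -0.85 with the block and -1.69 to 2.17 on leaving out 1 (-1.69 without thrombus 4). Plaur, thrombus against vein wall, was -1.94 to 0.59 on leaving out 1 sample (0.59 without vein wall 1).

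In thrombus against spleen, 17 genes were called, and 105 with DESeq2, 80 with no filter, 53 with the set covariate, 35 with 12 separate libraries and 52 with those and a replicate block; leaving out 1 sample gave 6 to 34 (6 without spleen 2, 8 without spleen 3-4, 34 without spleen 1). In vein wall against spleen, 13 were called, and 119 (89 higher, 30 lower), 66, 48, 51 and 67 in the same order, 7 on unique exon reads and 8 on library totals, with 5 to 28 on leaving out 1 sample (5 without spleen 2, 6 without spleen 3-4, 28 without spleen 1). In thrombus against vein wall none was called, and 10 with DESeq2, 2 with no filter and 0 to 1 on leaving out 1 sample (1 without thrombus 2). The fits of 12 separate libraries count near-duplicate libraries as separate samples. The cause of these shifts was not tested. Pathway list genes called numbered at most 2. Library totals, chosen after seeing the data, moved the median gene from -0.01 to -0.23 in vein wall against spleen and from 0.04 to 0.18 in thrombus against vein wall.

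Libraries with the same number in 2 tissues had deviations that correlated at -0.07 to 0.40, so the numbers were not taken as pairs, and the replicate block changed no call of a member. Same-numbered libraries correlated at 0.034 to 0.40 within the same set of files and at -0.07 to 0.016 across sets. The set of files was left out of the main fit and was a covariate in an alternative. Reads near the floor of 3 limit Spint1, and the spread between samples limits St14.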
